A study of Mus musculus with 6 samples.

Results

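The MYC, MAX and MXD network was followed in naive CD4+ T cells of mouse spleen through its 8 genes Myc, Max, Mnt, Mga, Mxd1, Mxd3, Mxd4 and Mxi1. They were chosen by name as members of one protein network, and all 8 are among the 55487 genes of the deposited tables. The cells were labelled as TN cells, the naive CD4+ T cells of the spleen, and came from wild-type C57BL6/J mice. 3 libraries are from mice treated in vivo with Rapamycin, an inhibitor of the kinase mTOR, and 3 are from mice with no treatment. The dose, the length of treatment, the vehicle, and the age and sex of the mice are not given in the sources used here, nor is it stated whether each library came from a separate mouse; the p-values therefore rest on library-to-library variation that could be technical. Polyadenylated RNA was sequenced, and the comparison asks how mTOR inhibition in the animal alters these cells.

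The network is a set of basic helix-loop-helix leucine zipper proteins that share one partner. MYC binds DNA as a dimer with MAX at E-box sites and drives genes of growth, ribosome assembly, nucleotide synthesis and glycolysis, whereas dimers of MAX with MNT or with the MXD proteins recruit the SIN3 corepressor to the same sites, and dimers with MGA belong to a polycomb repressor complex. Resting naive T cells hold little MYC protein, which climbs steeply after antigen receptor stimulation, and the amount of MYC protein is also set by translation and by rapid turnover, neither of which RNA levels show.

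Total expected counts lay between 8757280 and 9315370 in rapamycin libraries and between 9712671 and 11393317 in untreated libraries. The CD4 marker gene Cd4 averaged 687 ± 9.29 CPM in rapamycin and 716 ± 11.6 CPM in untreated libraries (SD, n = 3 each, as in every mean below). CPM are counts scaled to TMM-adjusted library sizes. Summed over 12 markers of myeloid cells, the deposited TPM was 19.7 to 31.1 in rapamycin and 93.4 to 99.9 in untreated libraries, and 8 of the 9 tested markers fell (median −1.76); none of the 12 was at 0 in all libraries. Summed over 2 CD8 genes it was 76.6 to 80.1 in rapamycin and 17.6 to 19.2 in untreated libraries. T cell markers summed to 7920 to 8090 TPM in rapamycin and 9100 to 9180 TPM in untreated libraries, and 11 of 12 fell (median −0.28). Markers of naive CD4 cells summed to 4990 to 5160 TPM in rapamycin and 3980 to 4050 TPM in untreated libraries, and 8 of 10 rose. With the correction for gene length given below, 7 T cell markers fell and 2 rose (median −0.09), and 7 naive CD4 markers rose and 2 fell. Of 8 tested markers of activated or memory T cells, 3 rose and 4 fell (median −0.02), with the same counts after that correction. Of 6 tested markers of regulatory T cells, 3 rose and 1 fell (median 0.55), and 2 rose and 0 fell after that correction. Of all tested genes 24.1% rose and 23.3% fell, or 20.2% and 18.2% with that correction. Plasma cell markers summed to 43.8 to 46.6 TPM in rapamycin and 88.2 to 92.2 TPM in untreated libraries, with Tnfrsf17 at 0, and erythroid markers to 12.3 to 14.9 TPM in rapamycin and 26.6 to 37.5 TPM in untreated libraries. Summed B cell markers were 485 to 512 TPM in rapamycin and 469 to 508 TPM in untreated libraries, and markers of dividing cells were 6.97 to 9.02 TPM in rapamycin and 8.76 to 12.5 TPM in untreated libraries. In such bulk samples, fewer cells of a type and less RNA per cell cannot be told apart, and the part of these other cells in the changes below was not tested.

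With rapamycin the MAX-binding genes moved apart. Mxi1, Mga and Mnt rose by 0.70 ± 0.09, 0.60 ± 0.03 and 0.44 ± 0.06 on the log2 scale (± SE, rapamycin over untreated), Mxd1 rose by 0.25 ± 0.09, Mxd4 fell by 0.14 and Myc by 0.11, and Max changed by −0.04 ± 0.04, which did not pass the test. Of the 8 genes, 7 passed the filter on low counts. In edgeR's quasi-likelihood test, with p-values adjusted over 11950 genes after Benjamini and Hochberg, 4 were higher and 2 lower at an adjusted p under 0.05, against a background of 24.1% of all tested genes higher and 23.3% lower, or 47.4% in either direction. The CPM values of the groups did not overlap for 6 of the 7, and did not for 53.8% of all tested genes. Changes that passed the test were thus common in the comparison, and the count of members that passed is no result about the network by itself.

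**Figure D1:**
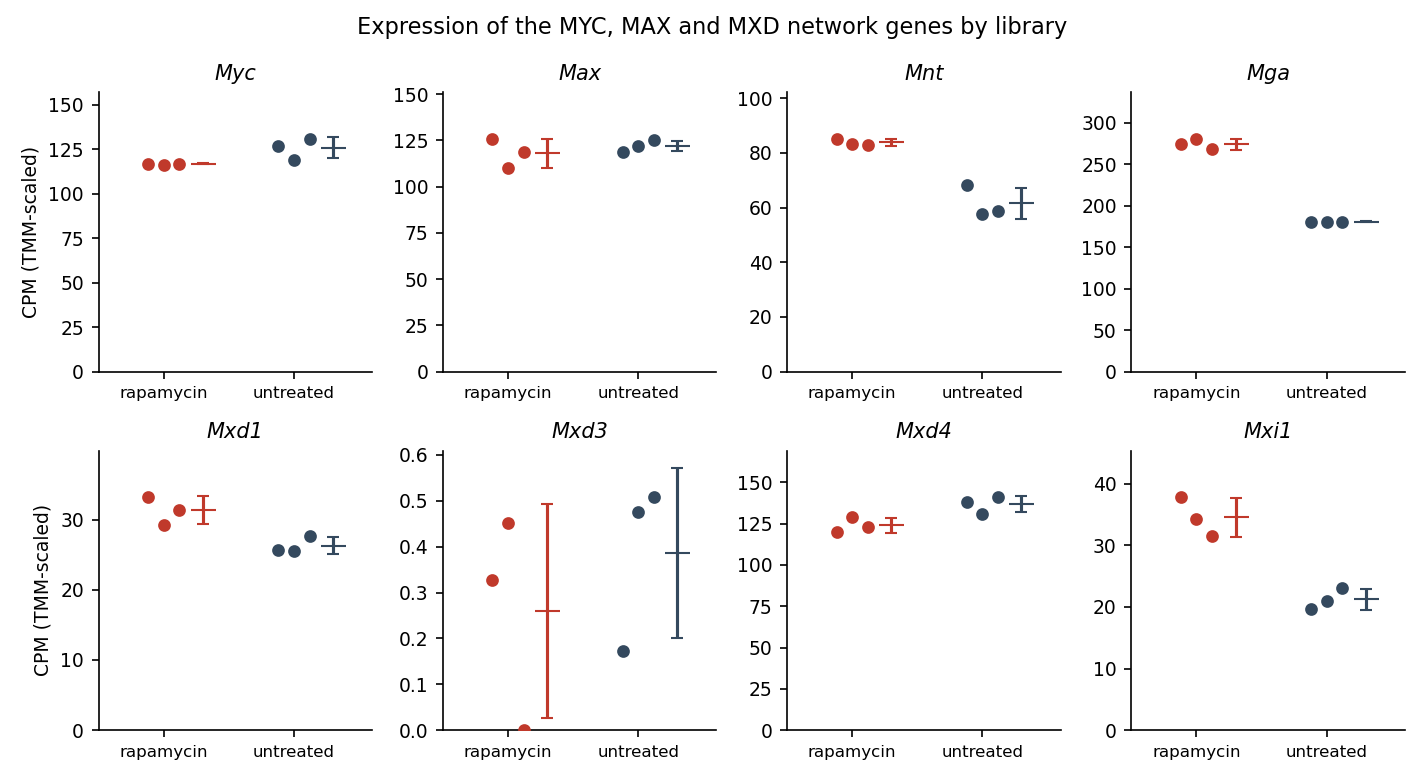
Each panel gives the CPM of 1 gene (vertical axis, from 0) in the 3 rapamycin libraries (left, red) and the 3 untreated libraries (right, dark), with the mean ± SD beside the points. All 3 rapamycin libraries lie above all untreated ones for Mga, Mnt, Mxi1 and Mxd1 and below them for Myc and Mxd4, while Max overlaps and Mxd3 stays at or under 0.508 CPM.

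Fold changes in this comparison followed gene length, which bears on how the members are read. Among 9979 genes at or above a mean log2 CPM of 2, the median log2 fold change was 0.25 over the 998 longest genes and −0.32 over the 998 shortest. The cause of this trend was not tested. A correction for length takes out changes that go with length, whatever their origin. The members differ widely in length: the deposited RSEM lengths averaged 6394 bases for Mga, 4438 for Mnt, 4365 for Mxd1, 3743 for Mxd4, 2261 for Mxi1, 1968 for Myc and 1624 for Max. A fit with a spline on gene length gave 3 members higher and 1 lower, where 20.2% of genes were higher and 18.2% lower, or 38.4% in either direction. Mxi1, Mga and Mnt remained higher in it and Mxd4 lower, while Myc and Mxd1 were no longer called.

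**Figure D2:**
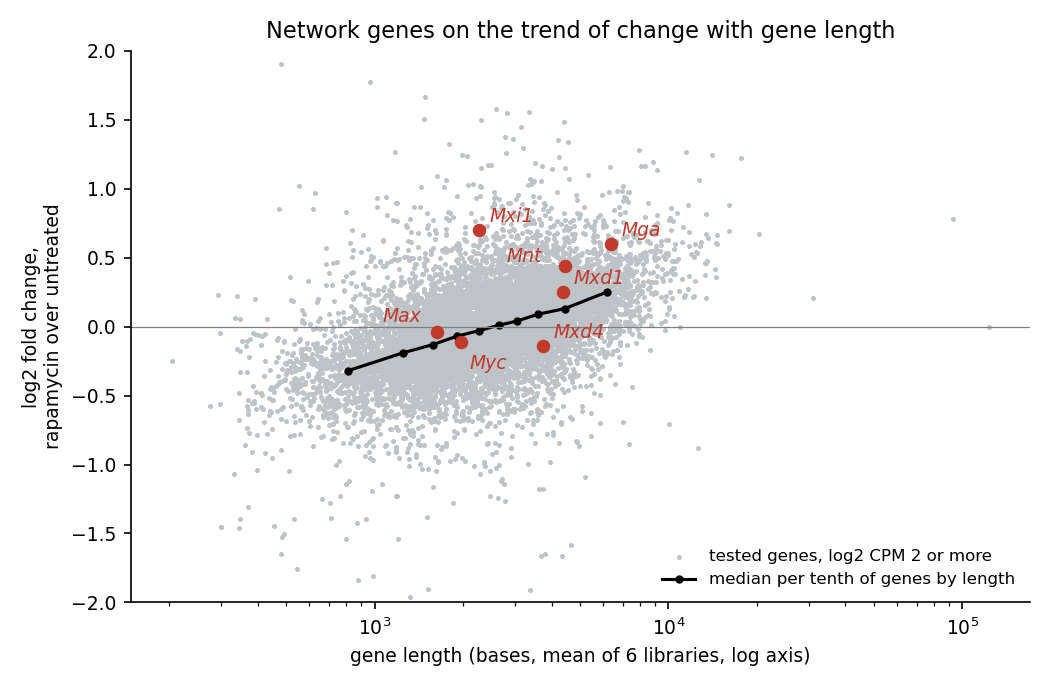
Log2 fold change of rapamycin over untreated (vertical axis) against mean gene length in bases (horizontal log axis) for 9979 tested genes in grey, with medians over 10 equal bins of length in black and the 7 tested members in red; 17 genes beyond a log2 change of 2 in either direction lie outside the plot. Mxi1 and Mga stand above the black line and Mxd4 below it, whereas Myc and Max lie within 0.1 of it.

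Myc (ENSMUSG00000022346, mm10 chromosome 15, 61985391 to 61990374, plus strand), the activator of the network, was measured at 117, 116 and 117 CPM in rapamycin libraries and 127, 119 and 131 CPM in untreated libraries. The 3 rapamycin values lay just below the lowest untreated one. The log2 fold change of −0.11 ± 0.04 had an adjusted p of 0.029 by edgeR's quasi-likelihood test, and with the length correction it was −0.06 ± 0.04 (adjusted p = 0.30). Leaving out any single library other than untreated replicate 2 ended the call: the change was −0.11 without rapamycin replicate 1, 2 or 3 or untreated replicate 1, and −0.08 without untreated replicate 3. On the deposited TPM scale, which is per length, Myc was 96.7, 92.7 and 96.3 in rapamycin libraries and 96.8, 91.3 and 99.0 in untreated libraries, and there the groups overlapped.

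Max (ENSMUSG00000059436, chromosome 12, 76937269 to 76962201, minus strand) encodes the partner that the other proteins of the network share. It stood at 126, 110 and 119 CPM in rapamycin and 119, 122 and 125 CPM in untreated libraries, which overlap (adjusted p = 0.44). Per length the picture was another one. Its TPM was 133, 138 and 129 in rapamycin libraries and 96.0, 98.7 and 124 in untreated libraries, and a limma test on log2(TPM + 1) gave 0.33 ± 0.09 (adjusted p = 0.032), in a test that called 32.4% of all genes, 22.8% higher and 9.63% lower. The length that RSEM assigned to Max is an average over transcripts weighted by their estimated abundance, and the deposited tables list 7 transcripts for Max. This length was 1568, 1352 and 1536 bases in rapamycin libraries and 1872, 1862 and 1552 bases in untreated libraries. Untreated replicate 3 had a Max length within the range of the rapamycin libraries, and its TPM was closest to theirs. Thus the number of Max reads did not pass the test for a change, and its TPM moved with the estimated length. Max overlaps Gm47218, a gene still to be experimentally checked in the annotation, on the same strand by 1319 bases. Gm47218 averaged 51.2 counts.

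Mnt (ENSMUSG00000000282, chromosome 11, 74830920 to 74845725, plus strand), a broadly expressed MAX partner that opposes MYC through SIN3, was at 85.2, 83.4 and 82.8 CPM in rapamycin libraries and 68.1, 57.5 and 58.9 CPM in untreated libraries. All 3 rapamycin values were above all untreated ones. The log2 fold change was 0.44 ± 0.06 (edgeR adjusted p = 1.4e-09), and 0.29 ± 0.06 after length correction (adjusted p = 3.8e-05).

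Mga (ENSMUSG00000033943, chromosome 2, 119897228 to 119969581, plus strand) encodes a very large MAX partner that also carries a T-box DNA-binding domain and holds together a polycomb complex. It had the highest CPM of the network in both groups, with 274, 281 and 268 CPM in rapamycin and 180, 181 and 180 CPM in untreated libraries. The groups lay far apart relative to the spread within them. Its log2 fold change of 0.60 ± 0.03 had the smallest adjusted p of the 7 members (edgeR adjusted p = 1.2e-25), and with the length correction it was 0.34 ± 0.03 (adjusted p = 1.5e-14).

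The MXD genes encode small repressors that bind SIN3 through a short N-terminal domain and are best known from cells that leave the cell cycle. Mxi1 (ENSMUSG00000025025, chromosome 19, 53310518 to 53375810, plus strand) was at 37.8, 34.2 and 31.5 CPM in rapamycin libraries and 19.7, 20.9 and 23.1 CPM in untreated libraries. This was the largest fold change of the network, 1.63-fold or 0.70 ± 0.09 on the log2 scale (edgeR adjusted p = 1.8e-09). The length correction left it at 0.73 ± 0.09 (adjusted p = 1.5e-09), the median change of genes of like length being −0.03.

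Mxd4 (ENSMUSG00000037235, chromosome 5, 34173883 to 34187720, minus strand), the most abundant MXD gene here, went the other way. It was at 120, 129 and 123 CPM in rapamycin and 138, 131 and 141 CPM in untreated libraries, a log2 fold change of −0.14 ± 0.04 (edgeR adjusted p = 0.0034). The length correction took it further from 0, to −0.24 ± 0.04 (adjusted p = 1.7e-06), the median change of genes of like length being 0.09. On the TPM scale, however, rapamycin libraries had 49.8, 48.9 and 46.5 and untreated libraries 53.3, 48.6 and 56.7, which overlap, and limma on log2(TPM + 1) gave −0.12 (adjusted p = 0.22). The antisense gene Gm42846 overlaps Mxd4 by 1001 bases and averaged 1.7 counts.

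Mxd1 (ENSMUSG00000001156, chromosome 6, 86647042 to 86669161, minus strand), known from differentiating blood cells and strongly expressed in neutrophils, was at 33.2, 29.2 and 31.4 CPM in rapamycin and 25.7, 25.5 and 27.7 CPM in untreated libraries. The groups did not overlap, and the adjusted p was 0.013 by edgeR. It was not called with the length correction (0.10 ± 0.09, adjusted p = 0.37), with DESeq2 (0.25 ± 0.11, adjusted p = 0.053; 37.8% of genes called), and without rapamycin replicate 1 (0.21), untreated replicate 1 (0.23) or untreated replicate 2 (0.23). Myeloid markers moved in the opposite direction, with Lyz2 at 3.71 ± 0.217 CPM in rapamycin and 17.1 ± 1.26 CPM in untreated libraries, and their part in the Mxd1 level was not tested. On the same strand 2364 bases of Mxd1 are shared with Gm44292, a gene of the same provisional class as Gm47218. Gm44292 averaged 25.2 counts.

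Mxd3 (ENSMUSG00000021485, chromosome 13, 55325168 to 55329823, minus strand), the MXD gene linked to dividing cells, was at the limit of detection. Its expected counts were 3, 4 and 0 in rapamycin libraries and 2, 5 and 5 in untreated libraries, so that it was not tested. The count of 0 in rapamycin replicate 3 allows up to 0.343 CPM at that depth, and a difference was not detectable. Its 3' end overlaps Prelid1 on the opposite strand by 105 bases. Prelid1 averaged 1431.2 counts, and whether some Mxd3 counts are reads of Prelid1 was not tested.

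**Figure D3:**
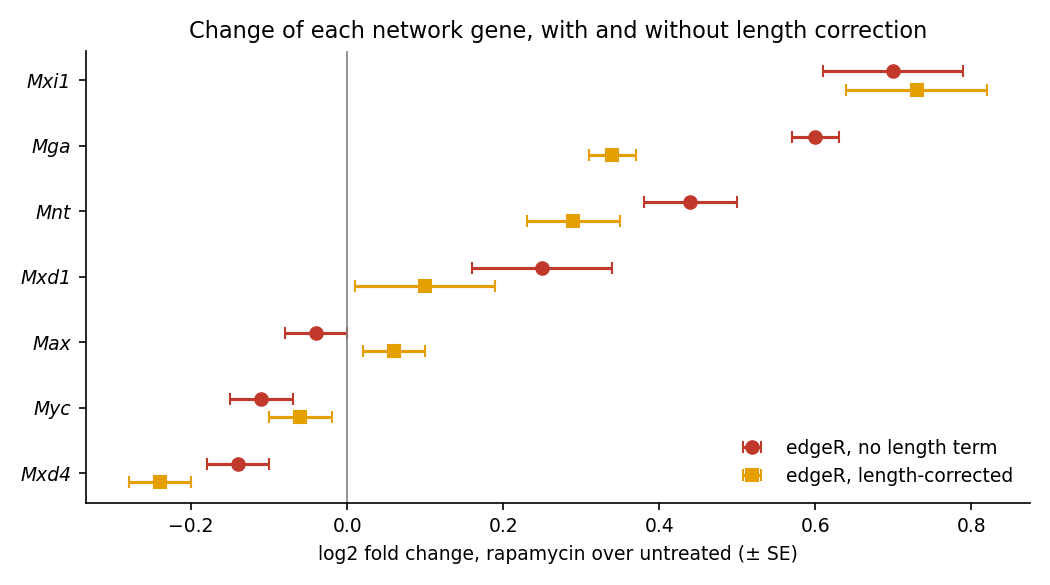
Log2 fold change of rapamycin over untreated (horizontal axis, ± SE) for the 7 tested members by edgeR without a length term (red circles) and with the length correction (orange squares). Mxi1, Mga and Mnt lie above 0 and Mxd4 below 0 in both, whereas Max changes sign between them.

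Because TPM is per length, it allows the members to be set against each other. In order of mean TPM, Max (133 ± 4.51), Myc (95.2 ± 2.18), Mga (63.0 ± 1.57), Mxd4 (48.4 ± 1.70), Mnt (28.2 ± 0.701), Mxi1 (24.3 ± 1.10), Mxd1 (10.7 ± 0.772) and Mxd3 (0.327 ± 0.300) followed each other in rapamycin libraries. In untreated libraries the order was Max (106 ± 15.5), Myc (95.7 ± 3.96), Mxd4 (52.8 ± 4.05), Mga (38.4 ± 2.06), Mnt (19.1 ± 1.61), Mxi1 (13.7 ± 1.17), Mxd1 (8.38 ± 0.495) and Mxd3 (0.447 ± 0.206). Mga and Mxd4 exchanged places, and within each group their 3 values did not overlap. Max and Myc in untreated libraries did overlap, as the Max values of 96.0 and 98.7 TPM lay within the range of Myc; no other neighbours in either order overlapped. The groups' TPM did not overlap for 5 of the 7 tested members, Max, Mnt, Mga, Mxd1 and Mxi1, where 47.0% of all tested genes had no overlap.

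Added up, the 6 genes of MAX partners other than MYC came to 176, 175 and 174 TPM in rapamycin libraries and 131, 129 and 139 TPM in untreated libraries. Their sum over the TPM of Myc was 1.84 ± 0.0459 in rapamycin libraries, against 1.39 ± 0.0316 in untreated libraries, and the 3 values of each group stood apart. Mga over Myc was 0.662 ± 0.0228 in rapamycin and 0.402 ± 0.0256 in untreated libraries, and Mxi1 over Mxd4 was 0.502 ± 0.00514 in rapamycin and 0.260 ± 0.0332 in untreated libraries. The share of Myc in the summed TPM of the network was 23.6 ± 0.676% in rapamycin libraries and 28.6 ± 1.26% in untreated libraries. These sums combine chosen genes and are given as descriptions, with no test. They carry no correction for the trend of fold change with gene length. In TPM the log2 level ratio was 0.71 for Mga and −0.01 for Myc, where the length-corrected log2 fold changes were 0.34 and −0.06. The part of that trend in the sums, ratios and shares was not tested.

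**Figure D4:**
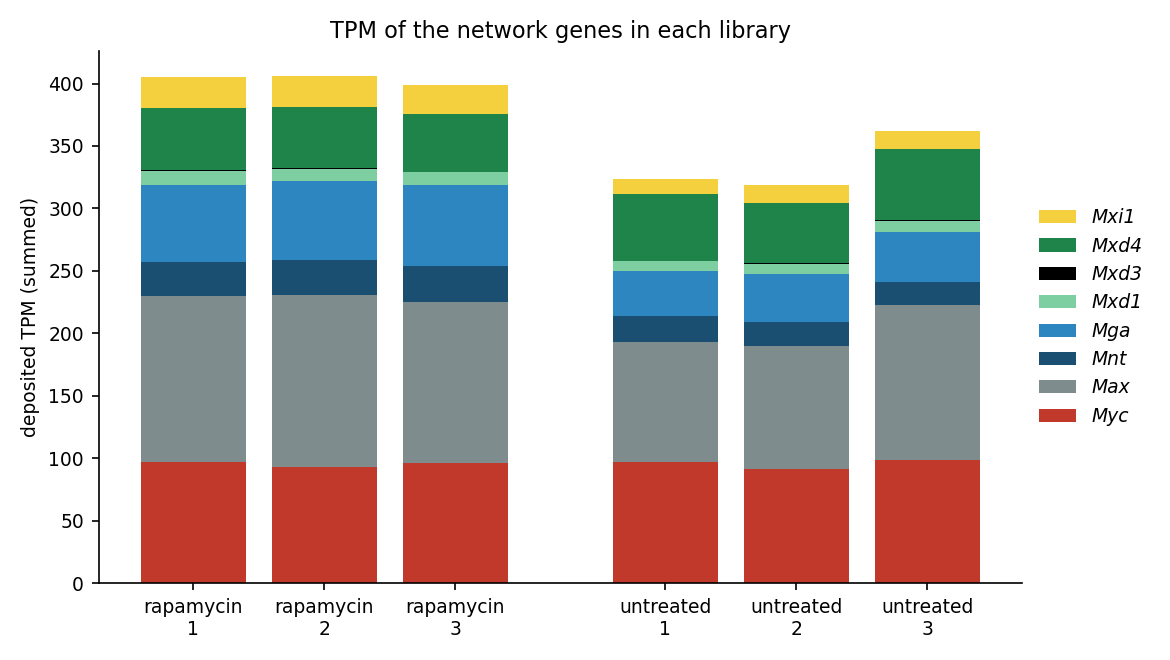
Stacked bars give the deposited TPM of each network gene (vertical axis, from 0) in the 3 rapamycin libraries (left) and the 3 untreated libraries (right). The red Myc segments are of like height, from 91.3 to 99.0 TPM over all 6 libraries, and the blue Mga and yellow Mxi1 segments are taller with rapamycin.

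The promoters of the members were read from RefSeq on GRCm38.p6, the assembly that mm10 names, as the 250 bases before and 50 after each annotated start; 7 of the 8 genes had an entry, all except Myc. The E-box CACGTG, the site of MYC-MAX and MXD-MAX dimers, reads alike on both strands and was found in 3 of these 7 genes, Max, Mnt and Mxd4, and in 8.09% of 27025 genes with such entries. Of these 3 genes Mnt rose, Mxd4 fell and Max was not called, so that the E-box did not go with one direction. The forkhead site GTAAACA, searched on both strands as GTAAACA or TGTTTAC, was found in 1 of the 7, Mxi1, and in 4.05% of genes. The following windows hold these matches, with the motif in capitals. Max lies at chr12:76962229-76962268, Mnt at chr11:74830784-74830823, Mxd4 at chr5:34187907-34187946 and Mxi1 at chr19:53329447-53329487, each written 5′ to 3′ on the strand of its gene.
Max: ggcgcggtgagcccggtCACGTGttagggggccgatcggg
Mnt: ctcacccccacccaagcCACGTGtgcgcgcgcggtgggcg
Mxd4: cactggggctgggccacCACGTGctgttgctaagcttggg
Mxi1: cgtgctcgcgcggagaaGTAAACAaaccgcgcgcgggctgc
The match begins 3 bases before the start in Max, 123 before it in Mnt, 219 before it in Mxd4 and 231 before one of the 3 annotated starts of Mxi1. The promoter of Mga, the member with the smallest adjusted p, held neither motif and is shown whole (chr2:119896978-119897277, plus strand), as is that of Mnt (chr11:74830674-74830973, plus strand) with its E-box in capitals.
Mga: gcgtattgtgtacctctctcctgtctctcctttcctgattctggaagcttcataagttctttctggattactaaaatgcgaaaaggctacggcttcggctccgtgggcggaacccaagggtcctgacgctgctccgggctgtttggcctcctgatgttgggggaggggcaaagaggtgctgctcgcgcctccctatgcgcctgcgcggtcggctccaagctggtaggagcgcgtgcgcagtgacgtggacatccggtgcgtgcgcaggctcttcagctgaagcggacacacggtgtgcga
Mnt: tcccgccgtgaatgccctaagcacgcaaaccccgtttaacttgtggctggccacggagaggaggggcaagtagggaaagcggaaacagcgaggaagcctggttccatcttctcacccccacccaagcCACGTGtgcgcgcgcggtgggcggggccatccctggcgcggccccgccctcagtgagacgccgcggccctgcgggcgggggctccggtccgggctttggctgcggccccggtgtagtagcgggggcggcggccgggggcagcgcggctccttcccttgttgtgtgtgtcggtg
A match is a string in the sequence and says nothing of binding in these cells, which was not measured.

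Of the close relatives of the network, 2 of 5 were tested. Mlxip, which encodes the glucose-sensing factor MondoA, rose by 0.42 ± 0.04, with 192 ± 5.81 CPM in rapamycin and 144 ± 9.86 CPM in untreated libraries (edgeR adjusted p = 1.6e-13; length-corrected 0.21). Its partner gene Mlx was at 44.2 ± 4.02 CPM in rapamycin and 50.8 ± 2.38 CPM in untreated libraries, and its log2 fold change of −0.20 ± 0.07 (edgeR adjusted p = 0.013) was called in 11 of 20 alternatives. It was not called with DESeq2 (−0.20), limma on log2(TPM + 1) or log2(TPM + 0.1) (−0.15), effective-length offsets (−0.26), the length correction alone or with the replicate block (−0.07) or with GC (−0.06), nor without rapamycin replicate 1 (−0.15) or untreated replicate 1 (−0.17). Mycn, Mycl and Mlxipl did not pass the filter on low counts.

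Of 18 genes of the SIN3-HDAC complex and its associates, corepressors that serve the MXD and MNT proteins, 8 rose and 3 fell, with a median log2 fold change of 0.09 beside −0.01 over all tested genes, and 7 rose and 2 fell after length correction (median 0.15). Arid4a, a SIN3-associated DNA-binding subunit, rose by 0.63 ± 0.03 (269 ± 4.31 CPM in rapamycin and 174 ± 3.83 CPM in untreated libraries; edgeR adjusted p = 2.9e-26; length-corrected 0.46). Ncor1, a nuclear receptor corepressor gene, rose by 0.32 ± 0.02, Arid4b by 0.35 ± 0.03 and Sap130 by 0.28 ± 0.05, each still called after length correction at 0.21, 0.16 and 0.16. These counts are to be read beside the 24.1% of all genes that rose and the 23.3% that fell, or 20.2% and 18.2% after length correction. With upper-quartile factors, with no composition factors or without rapamycin replicate 1, 9 of the 18 lay above 0 and 9 below; effective-length offsets called 5 higher, and limma on log2(TPM + 1) called 7 higher and 0 lower.

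Of 13 other subunits of the polycomb complex around MGA, 2 rose and 5 fell, beside 24.1% and 23.3% of all genes, with a median of −0.07 that turned to 0.08 on the log2(TPM + 1) scale; DESeq2 called 2 lower, and after length correction 2 rose and 2 fell (median −0.02), beside 20.2% and 18.2% of all genes. Tfdp1, which encodes the dimer partner of E2F factors, fell by 0.52 on the log2 scale, with 28.2 ± 1.23 CPM in rapamycin and 40.3 ± 2.58 CPM in untreated libraries (edgeR adjusted p = 1.5e-07; length-corrected −0.49). Rnf2, the ubiquitin ligase subunit, rose by 0.28 ± 0.05, and the length correction gave the same value. Rybp, which encodes a binding partner of RNF2, rose by 0.26 ± 0.06 and Hdac1, a deacetylase gene shared with the SIN3 list, fell by 0.17 on the log2 scale; neither call held after length correction (0.12 and −0.07), and Hdac1 turned to 0.08 on the log2(TPM + 1) scale.

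Among 19 genes of MYC coactivators and cofactors 9 rose and 3 fell, with a median of 0.04 that was 0.03 after length correction, when 8 rose and 0 fell (1 of the 19, Wdr5, is also on the polycomb list). Over all genes 24.1% rose and 23.3% fell, and 20.2% and 18.2% did after length correction. By limma on log2(TPM + 1) the median was 0.22, and with upper-quartile factors it was just below 0 and 7 fell. The genes with the smallest adjusted p encode large chromatin proteins. Bptf, a nucleosome remodelling factor gene, rose by 0.64 ± 0.02 (length-corrected 0.36), the acetyltransferase gene Crebbp by 0.68 ± 0.03 (length-corrected 0.33) and Trrap, the scaffold that joins MYC to acetyltransferases, by 0.56 ± 0.03 (length-corrected 0.34). The largest of these edgeR adjusted p-values was 1.0e-26, that of Trrap. The RSEM lengths of Bptf and Trrap did not overlap between groups. For Trrap they averaged 6177 bases in rapamycin and 4936 bases in untreated libraries. Over the 20 alternatives Trrap stayed called, at 0.19 to 0.57.

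Of 16 genes that set the lifetime of MYC protein, 6 rose and 4 fell, and 5 rose and 4 fell after length correction, where 24.1% and 23.3% of all genes, and 20.2% and 18.2% with that correction, did. The median was 0.03, and −0.03 with the length correction; by limma on log2(TPM + 1) the count that fell was 0 and by DESeq2 it was 1. Usp28, which encodes a deubiquitinase that spares MYC from degradation, was at 166, 180 and 177 CPM in rapamycin and 91.6, 92.0 and 98.3 CPM in untreated libraries. It rose by 0.89 ± 0.04 (edgeR adjusted p = 3.4e-27; length-corrected 0.86). Huwe1, a giant ubiquitin ligase gene, rose by 0.65 ± 0.02 (length-corrected 0.34). Set, which encodes a phosphatase inhibitor, fell by 0.13 on the log2 scale and Gsk3b, the kinase gene for the phosphorylation that marks MYC for destruction, rose by 0.19 ± 0.04; both calls were lost with the length correction, and it turned Gsk3b to −0.04. Fbxw7, the ubiquitin ligase that reads this mark (chosen after its values were seen), was at −0.04 ± 0.09 and did not pass the test (adjusted p = 0.72).

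Of 50 tested genes known to be induced by MYC, 25 fell and 5 rose, with a median of −0.14 beside −0.01 for all genes, against a background of 23.3% lower and 24.1% higher. After length correction 22 fell and 6 rose (median −0.09), against 18.2% of all genes lower and 20.2% higher. The count that fell was 11 with limma on log2(TPM + 1), where 28 of the 50 were below 0 and the median of all genes is 0.09, and 14 with offsets from the effective lengths, and the list's median ran from −0.18 to −0.02 over all alternatives. The list was drawn from general knowledge with earlier results of these libraries known, so its direction is no independent evidence. Nme1, a nucleoside diphosphate kinase gene, was at 35.8, 34.6 and 34.8 CPM in rapamycin and 62.4, 64.2 and 64.7 CPM in untreated libraries. It fell by 0.86 on the log2 scale (edgeR adjusted p = 1.4e-17; length-corrected −0.72), though it is close in sequence to Nme2 and reads may be split between them. Odc1, the rate-limiting enzyme gene of polyamine synthesis, was at 23.5, 29.2 and 26.2 CPM in rapamycin and 43.5, 43.1 and 46.4 CPM in untreated libraries, with no overlap, and fell by 0.75 on the log2 scale (edgeR adjusted p = 5.1e-12; length-corrected −0.65). Ldha, the lactate dehydrogenase gene, changed by −0.46 ± 0.03 (length-corrected −0.34) and the nucleolar methyltransferase gene Fbl by −0.39 ± 0.04 (length-corrected −0.19). Of the 10 markers of dividing cells, 5 were tested, of which 2 fell and 0 rose; their part in the lower target levels was not tested. The target genes that rose included, named after their values were seen, the glutamine transporter gene Slc1a5 (0.21), Wdr12 (0.31), Tfap4 (0.37) and Mat2a (0.10).

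**Figure D5:**
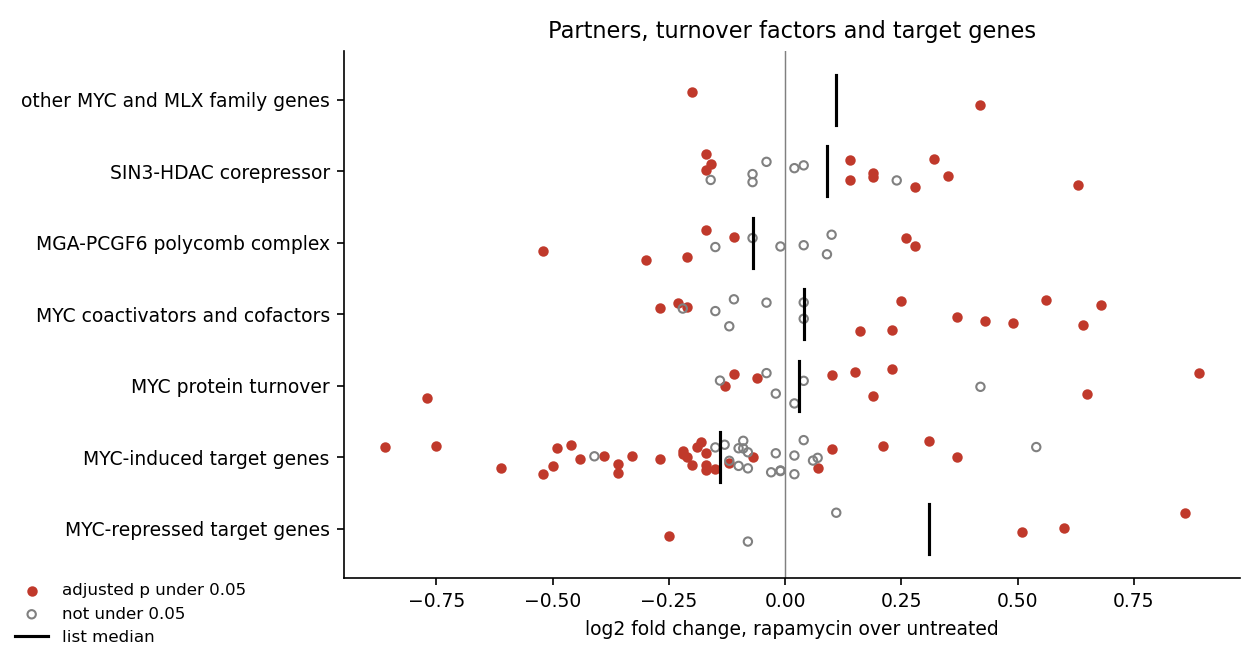
Log2 fold change of rapamycin over untreated (horizontal axis, no length correction) for each tested gene of 7 lists, with filled red points for an adjusted p under 0.05, open points for the others and a black bar at each list's median. MYC-induced target genes centre at −0.14, with Nme1 and Odc1 farthest to the left, and MYC-repressed target genes at 0.31.

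Of 11 genes known to be repressed by MYC, 6 were tested, of which 3 rose and 1 fell, beside 24.1% and 23.3% of all genes. After length correction 3 rose and 0 fell, beside 20.2% and 18.2% of all genes. The list's median ran from 0.15 to 0.52 over all alternatives. This list too was drawn with earlier results of these libraries known, so its direction is no independent evidence. Cdkn1b, which encodes the cell cycle inhibitor p27, was at 322, 328 and 339 CPM in rapamycin and 225, 209 and 219 CPM in untreated libraries. It rose by 0.60 ± 0.03 (edgeR adjusted p = 1.1e-25; length-corrected 0.56). Ndrg1, a stress-responsive gene, rose by 0.86 ± 0.10 and Hbp1, a gene for a repressor of cell cycle entry, by 0.51 ± 0.05, with length-corrected values of 0.85 and 0.52. Fth1, the ferritin heavy chain gene, fell by 0.25 on the log2 scale, and the length correction ended that call (adjusted p = 0.98).

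Across the 6 libraries, the protein-coding genes whose log2 CPM ran most like that of Myc were Myl12b, Mfsd3 and Mocs1, with Pearson's r of 0.988, 0.985 and 0.984. For Mga, the member with the smallest adjusted p, they were Nsd1, Cnot6l and Mex3b, with r of 0.9998, 0.9997 and 0.9997. Mga, Nsd1, Cnot6l and Mex3b each had one level in each group, so that these values mostly restate the difference between groups: Nsd1 was at 479 ± 6.39 CPM in rapamycin and 345 ± 0.645 CPM in untreated libraries. They are descriptions from 6 libraries that share their depth and scaling, chosen as the highest of many, and no test was made.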

How the data were processed

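Poly(A) RNA libraries of naive CD4+ T cells, 3 from rapamycin-treated and 3 from untreated mice, were compared. Per the submitters' processing notes, the authors used STAR and RSEM against mm10; versions and the annotation are not given in the sources used here. The libraries were made with a directional kit per the labels' protocols; whether counting used strand is not stated. The authors' deposited tables give, per library and gene, expected counts (estimates that divide shared reads, with 25.9% to 29.7% of a library's counts on genes with a fractional value, at a tolerance of 0.005), TPM and FPKM (scaled for effective length and depth by the authors; FPKM was not used), and lengths. Symbols and positions came from GENCODE vM21 on GRCm38, which matched 55227 of 55487 identifiers.

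Expected counts were rounded, filtered with filterByExpr (11950 genes), scaled with TMM and tested with edgeR's quasi-likelihood test (robust, group as the only term), adjusted by Benjamini-Hochberg at 0.05. The standard error is the log2 fold change over the square root of F. The length correction fits, per library, a spline of 5 degrees of freedom of log2 CPM deviations on log2 length. CPM floors of 3 counts lay between 0.322 and 0.343 in rapamycin and between 0.263 and 0.309 in untreated libraries; they cover counting error only. Between libraries of a group, the variance of counts was 1.72 to 1.99 times that of counting noise, so none was treated as a copy of another. This ratio cannot tell separate mice from separate preparations of one sample. All members were named; up to 4 called genes per list by smallest adjusted p, and 3 genes most like Myc and Mga, were named by rule, except for results not reported here. The members and lists were chosen with earlier results of these data known. Genes named outside the rule are marked as chosen after their values were seen. The procedure was also run on counts simulated with and without a length trend. Such a simulation cannot show whether the length correction takes out real changes in these libraries. Fits ran in R 4.3.3 (DESeq2 1.42.0, edgeR 4.0.16 and limma 3.58.1), and tables and figures were made in Python 3.11.15 with pandas 2.3.3 and matplotlib 3.10.9.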

Additional observations from a re-analysis of the deposited data

How the results depend on the processing

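Mxi1, Mga and Mnt stayed called and higher under all 20 alternatives, with log2 fold changes of 0.63 to 0.83, 0.33 to 0.71 and 0.29 to 0.56. Mxd4 was lower in all 20 (−0.24 to −0.12) and lost its call only by limma on log2(TPM + 1) and log2(TPM + 0.1), at −0.12 in both. Myc was below 0 in all 20 but called in 8: it was not called with DESeq2 (−0.11), either TPM test (−0.01), the length spline alone or with the replicate block (−0.06), effective-length offsets (−0.12) or length and GC splines (−0.04), and leaving out single libraries gave −0.15 to −0.08. Mxd1 was called in 10 of 20; it was not with DESeq2 (0.25), the TPM tests (0.31 and 0.34), the length spline alone or with the replicate block (0.10), effective-length offsets (0.24) or length and GC splines (0.12), and leaving out libraries gave 0.21 to 0.30. Max turned above 0 with the TPM tests (0.33 and 0.34, both called), the length spline alone or with the replicate block (0.06), length and GC splines (0.07) and effective-length offsets (0.22), and ran from −0.09 to 0.01 without single libraries; it was 0.01 without rapamycin replicate 2. The cause of these changes was not tested. Among the named genes of the lists, Hdac1 (0.08) and Set (0.01) turned sign in both TPM tests, Gsk3b with the length spline alone or with the block (−0.04) and with length and GC splines (−0.06), and Fth1 with length and GC splines (0.01).

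Of all genes, 5659 were called. Effective-length offsets called 3731, of which 1801 lower against 2785, and the TPM tests called 1151 and 1137 lower, with 70.3% and 70.4% of calls higher against 50.8%. Leaving out single libraries gave 5103 to 5239 calls. TMM-scaled counts per kilobase of effective length give the same shares as TPM by construction, since the scale of a library cancels in a share. Their equality is therefore no check. The log2 level ratios in these scaled counts were −0.09 for Myc, 0.63 for Mga and −0.21 for Mxd4, against −0.01, 0.71 and −0.12 in TPM. Same-numbered libraries did not deviate together (r = −0.106, 0.046 and −0.088), and libraries of unlike number gave r of −0.091 to 0.163. No pairing by number was thus seen, though a small shared effect could be missed. The replicate block left Myc at −0.11, called 2850 genes higher and 2743 lower, and changed no call among the members. With 3 libraries a group, Mxd3 was below what this depth can compare.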

Other observations

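Some genes on the lists fell outside the naming rule and were picked after their values were seen. The amino acid transporter gene Slc7a5 was at 34.1 ± 0.422 CPM in rapamycin and 48.0 ± 3.58 CPM in untreated libraries (−0.49 ± 0.07, edgeR adjusted p = 5.5e-08; length-corrected −0.55), whereas Slc1a5, the glutamine transporter gene of the same list, was at 267 ± 14.6 CPM in rapamycin and 231 ± 4.10 CPM in untreated libraries. Srm, which encodes the polyamine enzyme that acts after Odc1, changed by −0.61 ± 0.08 (length-corrected −0.44) and the kinase gene Cdk4 by −0.44 ± 0.05 (length-corrected −0.28). Tfap4, a transcription factor gene that MYC induces in activated T cells, was at 25.6 ± 1.68 CPM in rapamycin and 19.7 ± 0.423 CPM in untreated libraries. Cip2a, which encodes a stabiliser of MYC protein, was at 1.81 ± 0.485 CPM in rapamycin and 3.07 ± 0.724 CPM in untreated libraries (−0.77 ± 0.32, adjusted p = 0.038), and the proliferation marker Mki67 at 2.90 ± 0.670 CPM in rapamycin and 4.73 ± 0.638 CPM in untreated libraries.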
